A study of Mus musculus with 2 samples.

Results

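The genes described here are the colony-stimulating factor (CSF) receptors of the macrophage lineage and the ligands that could be read beside them. There were 4 receptor genes (Csf1r, Csf2ra, Csf2rb and Csf3r) and 2 ligand genes (Csf1 and Il34), 6 of the 27998 genes in the count matrices, chosen by gene symbol. The study made single-cell RNA libraries from mouse spinal cord to ask how microglia, the resident macrophages of nervous tissue, change when the transcription factor Runx1 is removed. The 10x Chromium 3′ method was used, in which each captured RNA molecule is counted once through a unique molecular identifier (UMI). The library labelled Runx1 knock-out came from tamoxifen-injected mice, and the wild-type-labelled library came from vehicle-injected mice. Both groups had the C57BL/6J background and the transgenic strain Cx3cr1-CreERT2-YFP::flxRunx1, so the vehicle mice also carried the Cre and the floxed allele. Tamoxifen was given at 1 mg per day in 5 daily injections, and cords were taken 4 weeks after the first. Cords of both groups were held at 37 °C during a 30 min digestion, with 2 mg of collagenase in each ml. Cells positive for yellow fluorescent protein were then sorted. No undigested sample was there for comparison, so the part of this warm step in the RNA levels below was not tested. Cre and the fluorescent protein are driven from the Cx3cr1 gene, whose expression is not limited to microglia among mononuclear phagocytes. The sources used here give no number of animals per library. With 1 library per group, tamoxifen, the knock-out and the library cannot be told apart and no test was possible. Every interval below is a 95% interval for counting error only and leaves out variation between animals.

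CSF1R is the receptor tyrosine kinase on which microglia depend for survival, and it has a pair of ligands, CSF1 and IL-34, with different cell sources. CSF2RA and CSF2RB together form the receptor for GM-CSF, in which CSF2RA binds the ligand and CSF2RB carries the signal, while CSF3R is the receptor for G-CSF and is best known from neutrophils. Microglial Csf1r is a classical target of the myeloid factors PU.1 and RUNX1, which makes its level of interest when Runx1 is the targeted gene.

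RUNX1 and PU.1 bind DNA at short core motifs, so the promoters of a ligand and a receptor are shown with these letters searched. As clustered jointly, Csf1 was higher with the knock-out label in both large classes and Csf2ra was not. With separate clusterings the log2 ratio of Csf1 between the libraries in microglia-like cells was -0.53. Any link between these letters and the ratios was not tested. Each promoter is the 250 bases before the RefSeq start in GRCm38.p6, 5′ to 3′ on the gene's strand. Of the 6 members, 3 had a promoter entry. Capitals mark GAGGAA, the core letters of a PU.1 site. Csf1 lies at chr3:107760470-107760719 and Csf2ra at chr19:61228419-61228668, both on the minus strand; the last bases of the Csf2ra window lie inside the transcript that GENCODE annotates.
Csf1: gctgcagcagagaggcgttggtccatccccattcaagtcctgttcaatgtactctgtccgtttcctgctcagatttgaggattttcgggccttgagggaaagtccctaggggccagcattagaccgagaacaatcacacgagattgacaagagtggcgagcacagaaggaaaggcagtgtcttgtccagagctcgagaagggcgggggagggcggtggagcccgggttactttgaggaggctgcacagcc
Csf2ra: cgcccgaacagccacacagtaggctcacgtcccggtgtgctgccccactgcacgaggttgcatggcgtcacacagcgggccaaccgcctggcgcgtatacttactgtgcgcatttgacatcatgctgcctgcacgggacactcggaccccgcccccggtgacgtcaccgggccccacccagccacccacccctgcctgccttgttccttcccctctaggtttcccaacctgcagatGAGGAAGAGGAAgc
TGTGGT, the core letters of a RUNX site, was searched on both strands and is not in the windows of Csf1, Csf2ra or Csf3r; 14.05% of 32851 promoter windows of this length hold it. GAGGAA, also searched on both strands, is found in Csf2ra with starts 14 and 8 bases before the end of the window, in Csf3r 86 bases before it, at a place that GENCODE counts as part of the gene, and not in Csf1, and 23.3% of all windows hold it. A match is a description of letters and not a binding site, and the absence of a match says only that these letters are not in this window.

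The knock-out-labelled library held 2604 barcodes and 13075939 UMIs, and the wild-type-labelled library held 4582 barcodes and 37446978 UMIs, with median depths of 3715.5 and 6376 UMIs per barcode; 9 barcode sequences occurred in both. The sort for fluorescent cells did not give microglia alone. By their markers, 52.0% (50.1 to 54.0) of the 2596 filtered cells of the knock-out-labelled library and 47.1% (45.7 to 48.6) of the 4582 of the wild-type-labelled library were microglia-like, and 32.2% and 32.9% were endothelial-like. Microglia-like cells of the knock-out-labelled library lay in cluster 2 (1348 of 1351 cells) and those of the wild-type-labelled library in cluster 0 (2144 of 2159); endothelial-like cells lay mainly in cluster 3 (784 cells) and in cluster 1 (1428 cells). Levels are summed UMIs of a class divided by all UMIs of the same cells, on the usual CPM scale. They are not scaled by gene length, so levels are compared between classes and libraries and not between genes.

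RNA of the targeted gene was higher with the knock-out label. Runx1 had 180 CPM (170.0 to 191) in microglia-like cells of the knock-out-labelled library, against 93.4 CPM (88.6 to 98.3) in those of the wild-type-labelled library. The counts come from 3′ ends, and the labels do not say which part of the gene is removed, so this RNA does not check the knock-out either way. Directions below therefore compare the libraries by their labels, as the knock-out-labelled and the wild-type-labelled library, and do not stand for loss of Runx1.

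Markers of each large class were also counted in the other. The 12 microglia markers summed to 32207 CPM in microglia-like and 6616 CPM in endothelial-like cells of the knock-out-labelled library, and to 27490 and 11988 CPM in those of the wild-type-labelled library. The 9 endothelial markers summed to 1733 CPM in microglia-like cells of the knock-out-labelled library and 5296 CPM in those of the wild-type-labelled library. Each member is therefore read beside its level in endothelial-like cells, which should lack the myeloid receptors.

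Csf1r (ENSMUSG00000024621; chromosome 18, 61100598 to 61132149, plus strand, GRCm38) was highest in microglia-like cells among the classes with at least 50 cells in each library. Microglia-like cells had 2148 CPM (2111 to 2185) in the knock-out-labelled library and 1345 CPM (1327 to 1363) in the wild-type-labelled library. Endothelial-like cells had 214 CPM (199.9 to 229) in the knock-out-labelled library and 422 CPM (410 to 434) in the wild-type-labelled library. Microglia-like cells were thus 10.0-fold (9.36 to 10.8) above endothelial-like cells in the knock-out-labelled library and 3.19-fold (3.09 to 3.29) above them in the wild-type-labelled library. The intervals of these folds do not overlap. With separate clusterings the log2 ratio in the knock-out-labelled library was 2.12, against 3.33 as clustered jointly. In the wild-type-labelled library it was 1.64, against 1.67, so the size of the gap between the libraries depended on the clustering. In the separate clusterings, a cluster with endothelial and microglia markers was named endothelial-like in the knock-out-labelled library (145 cells). Such a cluster stayed unnamed in the wild-type-labelled library (413 cells), and the part of this difference was not tested. Hmgxb3 lies on the opposite strand of the same place, and whether any of its reads entered the Csf1r count was not tested.

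Among the 5 classes with at least 50 cells in each library, the order was the same at the top in both libraries. In the knock-out-labelled library, cluster 4 followed the microglia-like cells with 1072 CPM, then pericyte or smooth muscle-like cells with 435 CPM. Erythrocyte-like cells, with 236 CPM (196 to 282), and endothelial-like cells came last of the 5 and did not differ beyond their intervals. In the wild-type-labelled library, cluster 4 had 870 CPM, pericyte or smooth muscle-like cells 521 CPM (490 to 554), endothelial-like cells 422 CPM and erythrocyte-like cells 412 CPM (364 to 465), the last pair again overlapping. Cluster 4 (140 and 458 cells) stayed unnamed because it held endothelial markers, at 10777 and 10992 CPM, beside microglia markers, at 18486 and 19400 CPM; its median depth was 6787 and 13169 UMIs, above the 3464 and 5482 UMIs of microglia-like cells. It held 45 of the 54 barcodes marked as doublets in the knock-out-labelled library and 153 of the 168 in the wild-type-labelled library, against 3 and 2 among microglia-like cells.

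**Figure D1:**
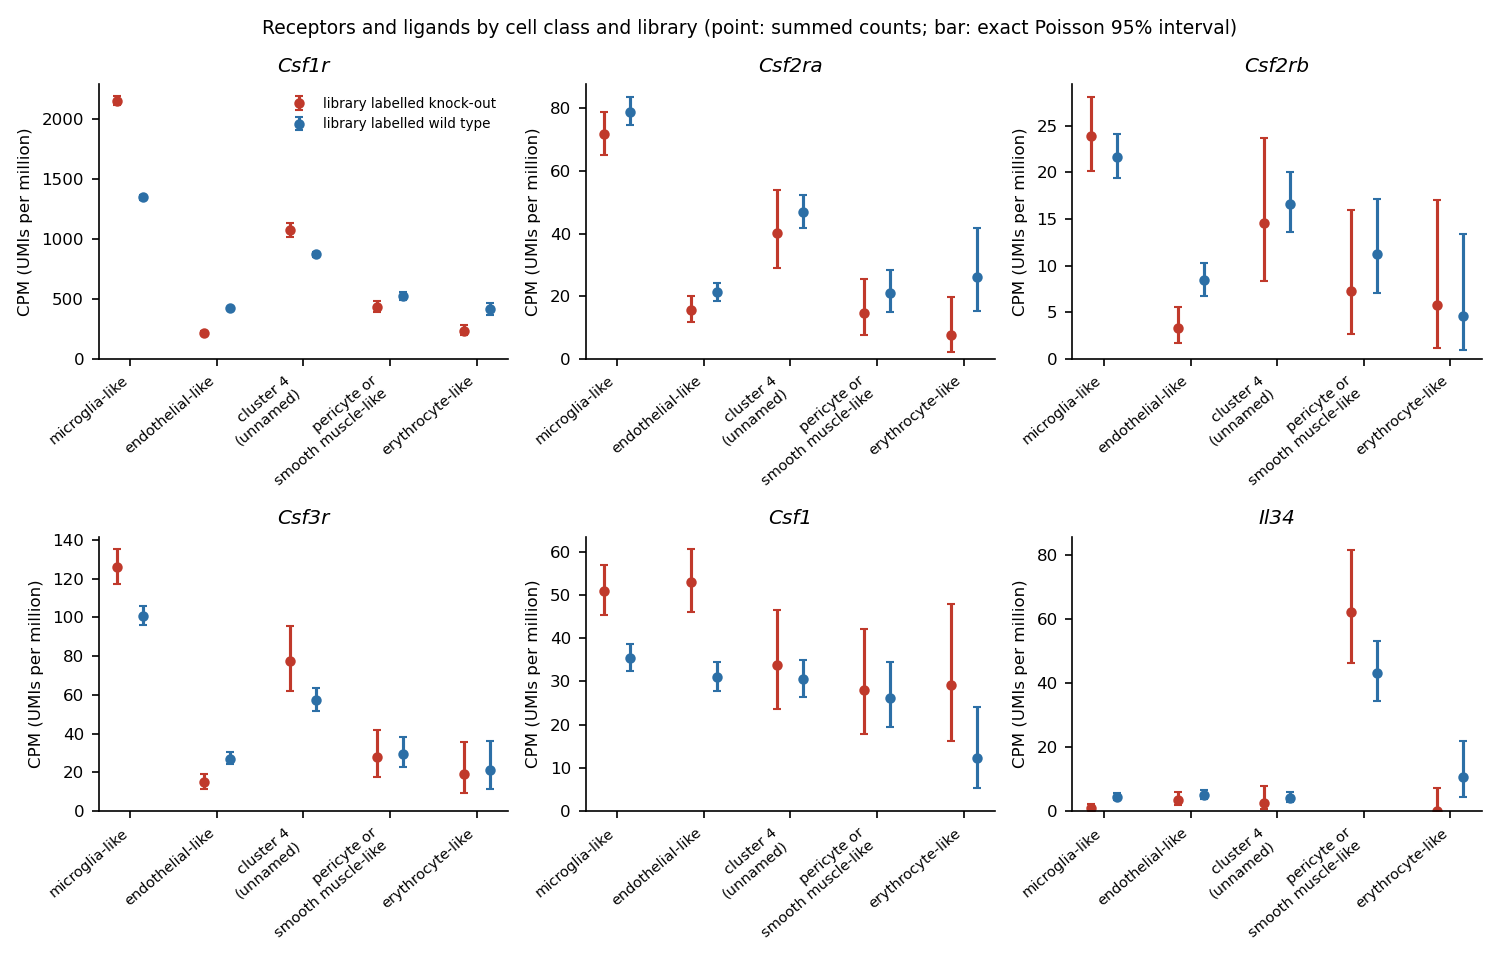
Level of each gene in CPM (vertical axis, linear, own scale per gene) in the 5 classes with at least 50 cells in each library; points are summed counts and bars exact Poisson 95% intervals, with the knock-out-labelled library in red and the wild-type-labelled library in blue. The 4 receptor genes are highest in microglia-like cells, Il34 in pericyte or smooth muscle-like cells, and Csf1 is as high in endothelial-like as in microglia-like cells of the knock-out-labelled library.

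Smaller classes lay above and below these. Border-associated macrophage-like cells had 1718 CPM (1347 to 2160) in 6 cells of the knock-out-labelled library and 1002 CPM (903 to 1110) in 28 cells of the wild-type-labelled library. Cluster 9, an unnamed cluster led by the cell cycle genes Top2a and Mki67 together with Gzma and Nkg7, had 1886 CPM in 18 cells and 1083 CPM in 30 cells. Ependymal-like, oligodendrocyte-like and fibroblast or meningeal-like cells had 227, 167 and 204 CPM in the knock-out-labelled library and 475, 399 and 499 CPM in the wild-type-labelled library, around the endothelial-like level of each library.

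The number of Csf1r UMIs per microglia marker UMI in the other classes depended on Sparc. Per 1000 UMIs of all 12 microglia markers, the knock-out-labelled library had 66.7 Csf1r UMIs (65.5 to 67.9) in microglia-like and 32.4 (30.2 to 34.6) in endothelial-like cells, and the wild-type-labelled library had 48.9 (48.2 to 49.6) and 35.2 (34.1 to 36.2), with no overlap in either. Per 1000 UMIs of the 11 markers without Sparc, the knock-out-labelled library had 77.5 Csf1r UMIs in microglia-like cells, 73.9 in cluster 4, 77.6 in pericyte or smooth muscle-like cells, 63.5 in erythrocyte-like cells and 61.2 in endothelial-like cells. The wild-type-labelled library had 57.4, 57.4, 54.6, 54.9 and 52.8 in the same classes. Sparc was left out of this count after the data were seen, because its endothelial-like level reached 69.3% and 98.7% of its microglia-like level. The Csf1r level of endothelial-like cells was 9.97% and 31.4% of that of microglia-like cells, close to the median of the 12 markers, 11.4% and 30.9%. Whether the Csf1r UMIs of endothelial-like cells come from free RNA was not tested.

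Csf1r was 1.60-fold higher in microglia-like cells of the knock-out-labelled library than in those of the wild-type-labelled library, a log2 ratio of 0.68 (0.64 to 0.71). It was the only member past 1.5 times in either direction, 1 higher and 0 lower of the 5 members that reached 20 CPM, against 8.21% of 5747 genes higher and 12.4% lower. The median log2 ratio of all genes was -0.04. The 12 microglia markers had a median log2 ratio of 0.27, and 2 of them lay above Csf1r. Relative to the summed microglia markers the ratio of Csf1r was 0.45, without Sparc 0.43, and with the estimated background taken out 0.37, where 20.6% and 52.6% of the microglia-like UMIs were estimated as background; all 3 values are below the 0.58 that corresponds to 1.5 times. The direction held under these scalings and the call did not.

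In endothelial-like cells the direction was the other one, with a Csf1r log2 ratio of -0.98 (-1.09 to -0.87), beside microglia marker sums of 6616 CPM in the knock-out-labelled library and 11988 CPM in the wild-type-labelled library. The other receptors had the same sign there, with -0.45 (-0.88 to -0.04) for Csf2ra, -1.37 (-2.33 to -0.52) for Csf2rb and -0.85 (-1.28 to -0.45) for Csf3r. The part of the microglia marker RNA in these ratios was not tested.

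**Figure D2:**
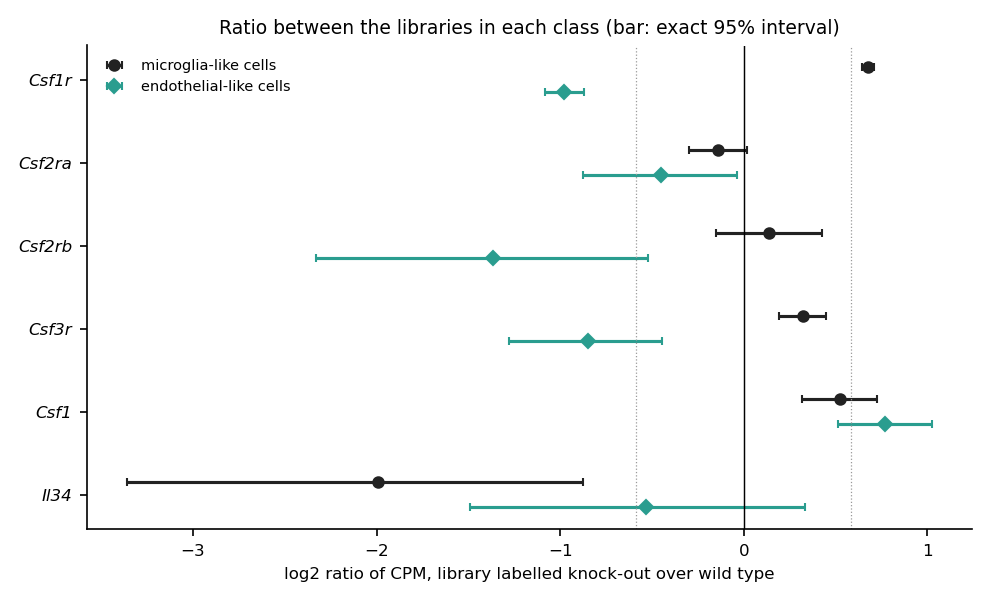
Log2 ratio of CPM, library labelled knock-out over library labelled wild type (horizontal axis), for each gene in microglia-like cells (black circles) and endothelial-like cells (green diamonds), with exact 95% intervals; dotted lines mark 1.5 times. Csf1r and Csf3r lie above 0 in microglia-like and below 0 in endothelial-like cells, and Csf1 lies above 0 in both.

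The same held per cell at equal depth. At 1500 UMIs drawn per cell, 94.3% (92.9 to 95.5) of the 1351 microglia-like cells of the knock-out-labelled library and 86.4% (84.9 to 87.8) of 2159 of the wild-type-labelled library held a Csf1r UMI. Endothelial-like cells held one in 29.7% (26.6 to 32.9) and 46.9% (44.3 to 49.4), at median depths of 3568.5 and 5749 UMIs. The quartiles of thinned Csf1r UMIs per microglia-like cell were 2, 3 and 5 in the knock-out-labelled library and 1, 2 and 3 in the wild-type-labelled library. The whole distribution was shifted, with 3.33% of the cells of the knock-out-labelled library and 0.0463% of the others at 8 UMIs or more. Without thinning the median was 8 UMIs per cell in both libraries, and 99.1% and 99.6% of microglia-like cells held a UMI.

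**Figure D3:**
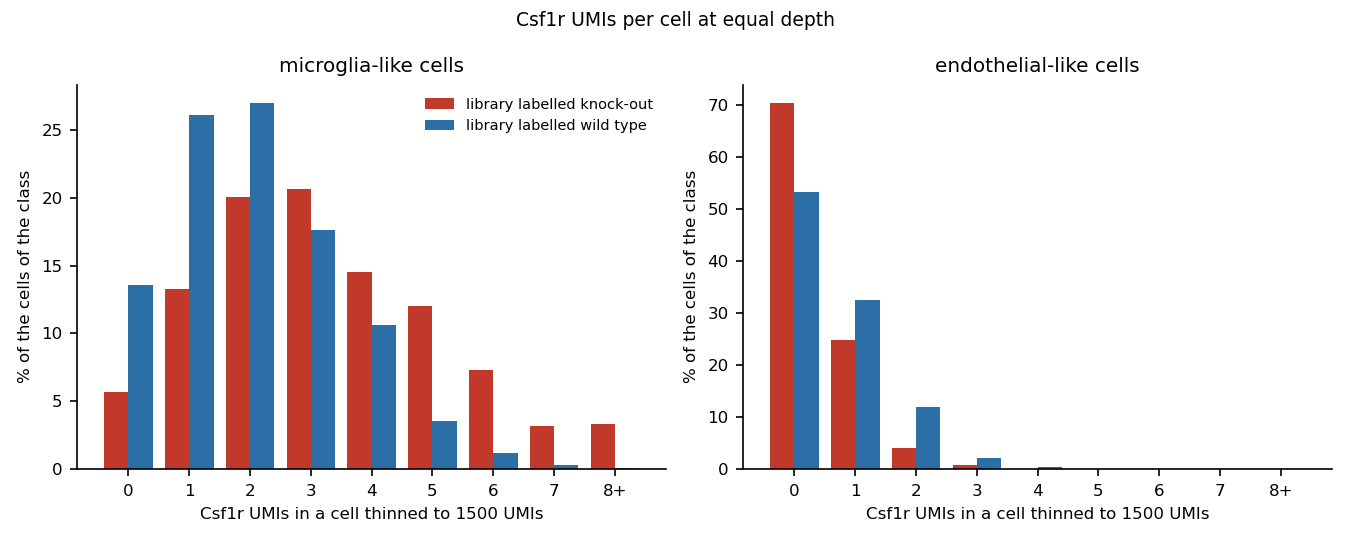
Percent of cells (vertical axis) by number of Csf1r UMIs in a cell thinned to 1500 UMIs (horizontal axis; the last position is 8 or more), microglia-like cells on the left and endothelial-like cells on the right, library labelled knock-out in red and library labelled wild type in blue. Microglia-like cells without a Csf1r UMI make up 5.70% in the knock-out-labelled library and 13.6% in the wild-type-labelled library.

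The GM-CSF receptor chains were found in microglia-like cells of both libraries and did not differ between them beyond counting error. Csf2ra (ENSMUSG00000059326; chromosome 19, 61223957 to 61228429, minus strand), the ligand-binding chain, had 71.7 CPM (65.2 to 78.7) in microglia-like cells of the knock-out-labelled library and 79.0 CPM (74.6 to 83.6) in those of the wild-type-labelled library. Its log2 ratio was -0.14 (-0.30 to 0.02), an interval that includes equality; relative to the summed microglia markers it was -0.37, and with the estimated background taken out -0.49, both toward lower. Csf2rb (ENSMUSG00000071713; chromosome 15, 78325752 to 78353847, plus strand), the signalling chain, had 23.8 CPM (20.1 to 28.0) and 21.7 CPM (19.4 to 24.1), with a log2 ratio of 0.14 (-0.15 to 0.42), which also includes equality, and 0.49 after thinning to 1500 UMIs per cell.

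Both chains were higher in microglia-like than in endothelial-like cells. Csf2ra in endothelial-like cells was 15.6 CPM (11.9 to 19.97) in the knock-out-labelled library and 21.3 CPM (18.6 to 24.2) in the wild-type-labelled library, which puts the microglia-like level 4.60-fold (3.52 to 6.11) and 3.71-fold (3.22 to 4.30) higher. Csf2rb was at 3.27 CPM (1.74 to 5.59) and 8.42 CPM (6.78 to 10.3) there, for folds of 7.30 (4.14 to 14.04) and 2.57 (2.03 to 3.28). With separate clusterings the log2 ratios in the knock-out-labelled library were 1.35 for Csf2ra, against 2.20, and 1.43 for Csf2rb, against 2.87. For the wild-type-labelled library, the highest Csf2rb value of any class was 45.8 CPM (26.7 to 73.3), in 28 border-associated macrophage-like cells with 17 UMIs. The 6 such cells of the knock-out-labelled library had 0 UMIs, where 3 UMIs would be 70.6 CPM.

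Across the classes with at least 50 cells, Csf2ra was highest in microglia-like cells and next in cluster 4, at 40.1 CPM (29.1 to 53.8) in the knock-out-labelled library and 46.9 CPM (41.7 to 52.5) in the wild-type-labelled library, below the microglia-like interval in each. Endothelial-like, pericyte or smooth muscle-like and erythrocyte-like cells followed with 15.6, 14.6 and 7.75 CPM and with 21.3, 21.04 and 26.1 CPM, and the intervals of these 3 overlap in each library. Csf2rb had the same first place, but its order was less resolved. Cluster 4 had 14.6 CPM (8.33 to 23.7) and 16.6 CPM (13.6 to 20.03), overlapping the microglia-like intervals, and pericyte or smooth muscle-like cells had 7.32 CPM (2.69 to 15.9) and 11.3 CPM (7.08 to 17.1), overlapping those of cluster 4.

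The shares of cells with a UMI of either chain were low. At 1500 UMIs, Csf2ra was found in 10.1% and 11.6% of microglia-like cells of the libraries labelled knock-out and wild type, and in 2.15% and 3.51% of endothelial-like cells. Csf2rb was found in 4.22% (3.21 to 5.43) and 2.92% (2.25 to 3.72) of microglia-like cells, and in 0.478% and 0.861% of endothelial-like cells. Both chains were seen together in 3 of 1351 and 8 of 2159 microglia-like cells at this depth; cells that hold the RNA of both but yielded no UMI of 1 of them cannot be counted. Csf2rb has a close copy, Csf2rb2, the IL-3-specific chain of the mouse, on the same chromosome. Of the 50-base stretches in the last 500 bases of the annotated Csf2rb transcripts, 9.69% also occur in Csf2rb2, so a part of the reads of each may have been left out or shared. Csf2rb2 had 7.02 and 5.59 CPM in microglia-like cells.

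Csf3r (ENSMUSG00000028859; chromosome 4, 126024550 to 126044440, plus strand), the G-CSF receptor, had 126 CPM (117 to 135) in microglia-like cells of the knock-out-labelled library and 101 CPM (96.0 to 106) in those of the wild-type-labelled library. The intervals do not overlap, and the log2 ratio was 0.32 (0.19 to 0.45), a 1.25-fold higher level that stays under 1.5 times. Relative to the summed microglia markers the ratio was 0.092, and with the estimated background taken out it was -0.032, so the direction rests on the scaling. Endothelial-like cells had 15.1 CPM (11.5 to 19.4) and 27.2 CPM (24.2 to 30.5), a log2 ratio of -0.85 (-1.28 to -0.45). Microglia-like cells stood 8.36-fold (6.43 to 11.1) above endothelial-like cells in the knock-out-labelled library and 3.71-fold (3.28 to 4.22) in the wild-type-labelled library. With separate clusterings the log2 ratio was 1.98, against 3.06 as clustered jointly, in the knock-out-labelled library and 1.86, against 1.89, in the wild-type-labelled library.

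Among the 5 classes with at least 50 cells, cluster 4 came second for Csf3r, with 77.4 CPM (61.9 to 95.8) in the knock-out-labelled library and 57.2 CPM (51.5 to 63.4) in the wild-type-labelled library, below the microglia-like interval in each. Pericyte or smooth muscle-like cells had 28.0 and 29.8 CPM and erythrocyte-like cells 19.4 and 21.5 CPM, and their intervals overlap each other and those of endothelial-like cells. As a ratio, the pericyte or smooth muscle-like level was 1.86-fold (1.10 to 3.05) the endothelial-like level in the knock-out-labelled library, which excludes equality. In the wild-type-labelled library it was 1.09-fold (0.811 to 1.46), which includes it.

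Csf3r is a gene of neutrophils, so markers of that cell type were read beside it. The 9 neutrophil markers summed to 15.7 CPM in microglia-like cells of the knock-out-labelled library and 180 CPM in those of the wild-type-labelled library. In endothelial-like cells they summed to 94.5 and 200 CPM. The part of neutrophil RNA in the Csf3r counts was not tested. The clusters named neutrophil-like had 0 Csf3r UMIs in 1 cell and 1 UMI in 7 cells, too few cells to give a level. At 1500 UMIs, 16.7% (14.7 to 18.8) and 14.5% (13.1 to 16.1) of microglia-like cells and 1.91% and 3.78% of endothelial-like cells held a Csf3r UMI.

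In each library 5 members reached 20 CPM in microglia-like or endothelial-like cells. Of these, all 4 receptors were past 2 times higher in microglia-like cells and 0 members were past 2 times lower. Over all genes, 14.8% of 6713 were higher and 24.9% lower by this rule in the knock-out-labelled library. In the wild-type-labelled library 10.2% of 6301 were higher and 15% lower. Il34 was under 20 CPM in both classes and did not enter. Its microglia-like level was 0.325-fold (0.111 to 0.861) and 0.895-fold (0.620 to 1.30) the endothelial-like level in the libraries labelled knock-out and wild type. The endothelial-like level of the other 3 receptors was 11.95% to 21.7% of the microglia-like level in the knock-out-labelled library and 26.9% to 38.9% in the wild-type-labelled library. Without Sparc, the markers ranged over 6.79% to 16.1% and 17.2% to 46.1%, so 1 receptor, Csf2ra in the knock-out-labelled library at 21.7% (16.4 to 28.4), lay above the markers of its library.

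**Figure D4:**
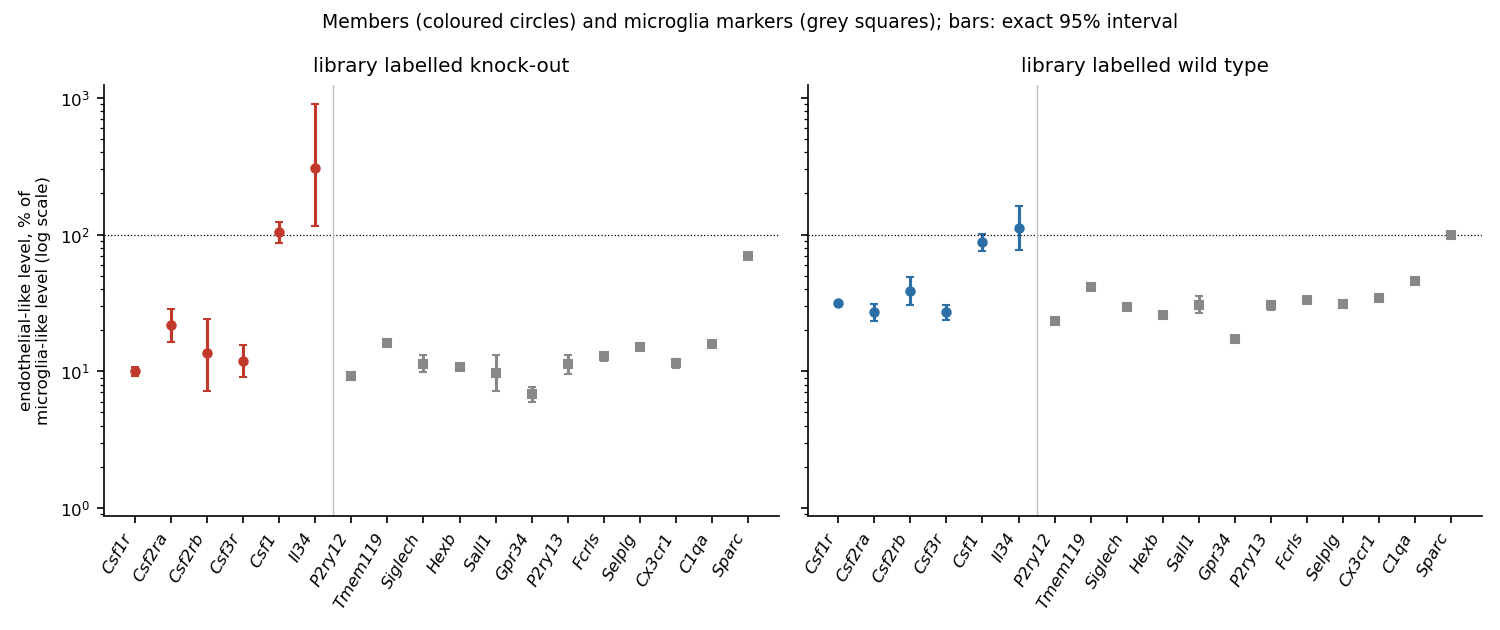
Level in endothelial-like cells as a percent of the level in microglia-like cells (vertical axis, log scale), library labelled knock-out on the left and library labelled wild type on the right, for the 6 members (coloured circles) and the 12 microglia markers (grey squares), with exact 95% intervals. The receptors lie among or near the markers, and the ligands Csf1 and Il34 lie at about 100% or above it, where Sparc is the only marker that comes near.

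Csf1 (ENSMUSG00000014599; chromosome 3, 107741048 to 107760469, minus strand), the ligand made by many cell types, did not separate microglia-like from endothelial-like cells. Microglia-like cells had 51.0 CPM (45.5 to 56.9) in the knock-out-labelled library and 35.4 CPM (32.5 to 38.5) in the wild-type-labelled library. Endothelial-like cells had 53.0 CPM (46.1 to 60.7) and 31.1 CPM (27.8 to 34.6). The microglia-like level was 0.961-fold (0.805 to 1.15) and 1.14-fold (0.994 to 1.31) the endothelial-like level, intervals that include equality in both libraries.

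Csf1 in endothelial-like cells was above the proportion in which microglia-like cells held it beside the microglia markers. Per 1000 UMIs of the markers without Sparc there were 1.84 Csf1 UMIs in microglia-like and 15.2 in endothelial-like cells of the knock-out-labelled library, and 1.51 and 3.89 in those of the wild-type-labelled library. In pericyte or smooth muscle-like cells there were 5.00 and 2.74, and in erythrocyte-like cells 7.81 and 1.63. As a level, cluster 4 had 33.7 CPM (23.7 to 46.5) and 30.5 CPM (26.3 to 35.1), pericyte or smooth muscle-like cells 28.0 CPM (17.8 to 42.1) and 26.2 CPM (19.5 to 34.4), and erythrocyte-like cells 29.1 CPM (16.3 to 47.9) and 12.3 CPM (5.29 to 24.2). Every neighbour in the order of Csf1 levels overlaps the next in both libraries; the endothelial-like interval lies above the erythrocyte-like one in the wild-type-labelled library and overlaps it in the knock-out-labelled library.

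Both large classes had a higher Csf1 level with the knock-out label. The log2 ratio was 0.52 (0.32 to 0.73) in microglia-like cells and 0.77 (0.52 to 1.02) in endothelial-like cells. Neither interval includes equality, and the microglia-like one is 1.44-fold, short of 1.5 times. The endothelial-like class held subgroups with unlike Csf1 levels, given below at a finer clustering. Its largest cluster there had 37.6 CPM (30.2 to 46.4) in the knock-out-labelled library and 27.7 CPM (24.1 to 31.6) in the wild-type-labelled library. The cluster led by Ackr1 had 110 CPM (88.4 to 134) in 85 cells and 75.3 CPM (60.4 to 92.8) in 80 cells. In each pair the level was higher with the knock-out label and the level intervals overlap. Such an overlap does not show equality, and no ratio between the libraries was computed within a subgroup. The part of these subgroups in the ratio of the whole class was not tested. With separate clusterings of the libraries, 745 cells of the knock-out-labelled library led by Tnf and Il1a stayed unnamed. The microglia-like ratio over the remaining 610 cells was -0.53. In the wild-type-labelled library a cluster of 920 cells with Tnf and Il1a among its leading genes was named microglia-like and kept. With the unnamed cells of the joint microglia-like class kept the ratio was 0.52, so the direction rests on which cells are counted as microglia-like. At 1500 UMIs, 5.48% (4.33 to 6.83) and 4.68% (3.83 to 5.66) of microglia-like cells, 6.82% (5.20 to 8.74) and 3.31% (2.47 to 4.35) of endothelial-like cells, and 2.90% and 1.82% of erythrocyte-like cells held a Csf1 UMI.

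Within both large classes Csf1 varied between subgroups in the same way in each library. At a finer clustering, made without the 6 genes and read after the data were seen, microglia-like cells of the knock-out-labelled library fell mainly into cluster 5 (566 cells) with 71.6 CPM (62.8 to 81.4) and cluster 2 (782 cells) with 25.5 CPM (19.9 to 32.1), a 2.81-fold difference (2.15 to 3.72). Those of the wild-type-labelled library fell into cluster 3 (710 cells) with 50.9 CPM (44.6 to 57.7), cluster 6 (514 cells) with 36.5 CPM (31.9 to 41.5) and cluster 1 (924 cells) with 18.8 CPM (15.1 to 23.3), and cluster 3 stood 2.70-fold (2.1 to 3.5) above cluster 1. No interval of these levels overlaps another within its library.

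Csf1 followed the order of the cytokine Tnf and the chemokine Ccl3 across these clusters; these 2 genes and P2ry12 took part in the clustering and only describe it. Tnf had 657 CPM in cluster 5 and 270 CPM in cluster 2 of the knock-out-labelled library, and 461, 291 and 165 CPM in clusters 3, 6 and 1 of the wild-type-labelled library. Ccl3 had 3595 and 2297 CPM, and 5210, 3461 and 2670 CPM in the same order. Csf1r ran the other way, with 2040 and 2279 CPM and with 1245, 1358 and 1430 CPM, as did the microglia marker P2ry12, with 2667 and 3909 CPM and with 1273, 1726 and 2396 CPM. The summed microglia markers changed more than Csf1r, with 28224 and 36888 CPM and with 23943, 27132 and 31673 CPM. Relative to that sum the order of Csf1r is turned round, so its direction rests on the scaling. The Csf1r differences were small beside those of Csf1, at most 1.15-fold (1.11 to 1.19) within a library. Whether these orders were present before the warm digestion or arose during it was not tested.

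Among endothelial-like cells Csf1 was higher in small clusters led by Ackr1, which encodes an atypical chemokine receptor of venules, and Vcam1, an adhesion molecule for leukocytes. Each library had a separate such cluster. In the knock-out-labelled library it was cluster 14, with 110 CPM (88.4 to 134) in 85 cells, 2.91-fold (2.15 to 3.95) above the 37.6 CPM (30.2 to 46.4) of cluster 4 of the finer clustering, the largest endothelial-like one. In the wild-type-labelled library it was cluster 15, with 75.3 CPM (60.4 to 92.8) in 80 cells, 2.72-fold (2.1 to 3.5) above the 27.7 CPM (24.1 to 31.6) of cluster 0, the largest there. Csf1r differed by less than its counting error there, with 203 against 202 CPM and 434 against 425 CPM. The cells of clusters 14 and 15 were deep, with median depths of 10218 and 14164 UMIs against 3202 and 5210 UMIs, and the part of depth in the difference was not tested. Arterial endothelial-like cells at this resolution had 31.3 CPM (19.4 to 47.8) in 147 cells and 16.3 CPM (11.6 to 22.1) in 309 cells.

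**Figure D5:**
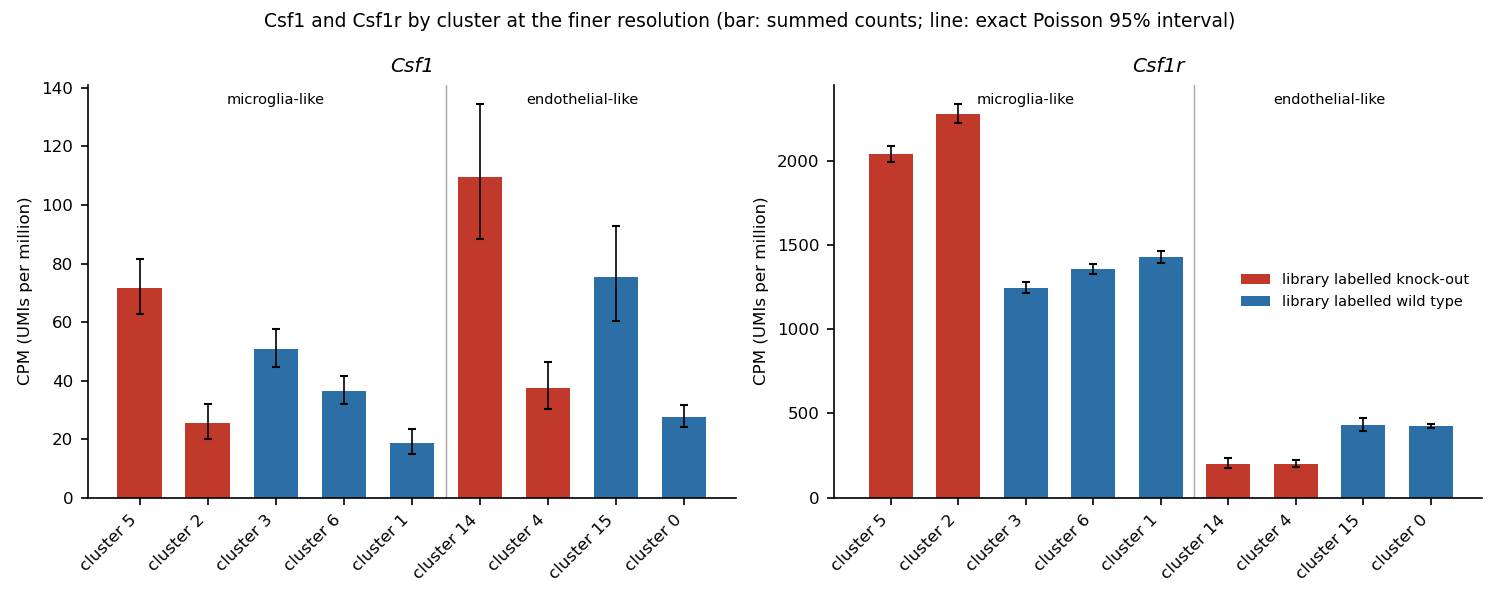
Csf1 (left) and Csf1r (right) in CPM (vertical axes, from 0) in the main clusters of the finer clustering, microglia-like clusters left and endothelial-like clusters right of the grey line, with exact Poisson 95% intervals; red bars are the knock-out-labelled library and blue bars the wild-type-labelled library. Csf1 spans 25.5 to 71.6 CPM between microglia-like clusters of the knock-out-labelled library while Csf1r spans 2040 to 2279 CPM.

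Il34 (ENSMUSG00000031750; chromosome 8, 110741829 to 110805924, minus strand), the other CSF1R ligand, was a gene of vessel wall and connective tissue cells here. Pericyte or smooth muscle-like cells had 62.2 CPM (46.3 to 81.8) in 126 cells of the knock-out-labelled library and 43.1 CPM (34.4 to 53.4) in 179 cells of the wild-type-labelled library. Endothelial-like cells had 3.52 CPM (1.92 to 5.90) and 5.09 CPM (3.83 to 6.62). The pericyte or smooth muscle-like level was 17.7-fold (9.64 to 34.6) and 8.48-fold (5.96 to 12.1) the endothelial-like level, and this ratio was looked up after the data were seen. Cluster 4 had 2.73 and 4.22 CPM. Erythrocyte-like cells had 0 UMIs in the knock-out-labelled library, where 3 UMIs would be 5.81 CPM. They had 10.7 CPM (4.31 to 22.1) from 7 UMIs in the wild-type-labelled library, where their interval overlaps that of endothelial-like cells.

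Fibroblast or meningeal-like cells were few and had more Il34 still. They had 215 CPM (130 to 336) in 10 cells with 19 UMIs in the knock-out-labelled library and 72.6 CPM (40.6 to 120) in 13 cells with 15 UMIs in the wild-type-labelled library. In the wild-type-labelled library this interval overlaps that of the pericyte or smooth muscle-like cells. A finer split of the mural cells gave no separation: the cluster led by Tagln and Acta2, smooth muscle genes, had 69.2 CPM (44.3 to 103) and 40.8 CPM (29.4 to 55.2), and the cluster led by Vtn and Rgs5, pericyte genes, had 57.1 CPM (37.6 to 83.0) and 45.4 CPM (32.7 to 61.4).

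Microglia-like cells had next to no Il34, with 7 UMIs and 1.14 CPM (0.460 to 2.36) in the knock-out-labelled library and 70 UMIs and 4.55 CPM (3.55 to 5.75) in the wild-type-labelled library. The share of microglia-like cells with a UMI at 1500 UMIs, 0.296% (0.0807 to 0.756) and 0.556% (0.288 to 0.969), had intervals that overlap those of endothelial-like cells, 0.718% (0.264 to 1.56) and 0.596% (0.273 to 1.13). Both levels are below the 20 CPM that a gene needed to enter the comparison of libraries, and the log2 ratio of -1.99 (-3.36 to -0.87) is not counted as a call. Between the libraries, the log2 ratio of Il34 in pericyte or smooth muscle-like cells was 0.53 (-0.00 to 1.05), which includes equality. Il34 has antisense neighbours, Gm15894 and Gm15895, and whether any of their reads entered its count was not tested.

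Set side by side, the receptor and its ligands had different class orders. For Csf1r, microglia-like cells were 4.93-fold (4.44 to 5.497) and 2.58-fold (2.42 to 2.75) above pericyte or smooth muscle-like cells in the libraries labelled knock-out and wild type. For Il34 the order was turned round, with pericyte or smooth muscle-like cells 54.4-fold (24.6 to 142) and 9.47-fold (6.81 to 13.2) above microglia-like cells. For Csf1 the microglia-like cells were 1.82-fold (1.19 to 2.91) and 1.35-fold (1.02 to 1.84) above the same cells. Csf1r and Csf1 UMIs were also found together. At 1500 UMIs, 67 of 1351 and 89 of 2159 microglia-like cells held a UMI of each. Of the cells with a Csf1 UMI, 90.5% and 88.1% also held a Csf1r UMI, close to the 94.3% and 86.4% of all microglia-like cells. Among endothelial-like cells, 21 of 836 and 17 of 1509 held a UMI of each, and the part of free RNA in these counts was not tested.

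The cytokines of the other receptors were at or near 0. Csf2, which encodes GM-CSF, had 0 UMIs in microglia-like and in endothelial-like cells of both libraries. Csf3, which encodes G-CSF, had 0 UMIs in microglia-like cells and 1 UMI in endothelial-like cells of each library. A count of 0 allows up to 0.603 CPM in microglia-like cells of the knock-out-labelled library and 0.240 CPM in those of the wild-type-labelled library. The cytokine genes Il3 and Il5 and the receptor gene Il5ra were also at 0 UMIs in microglia-like cells of both libraries. Il3ra, the IL-3 receptor alpha chain, had 6.04 and 7.61 CPM, Ptprz1, a second receptor for IL-34, 0.327 and 0.260 CPM, and Sdc1, a further IL-34 partner, 0 and 0.520 CPM. None of the 9 genes in this group reached 20 CPM.

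A few relay genes of CSF1R were higher in microglia-like cells of the knock-out-labelled library. Of 27 adaptors, kinases and phosphatases 20 reached 20 CPM, and 3 were past 1.5 times higher and 0 lower, against 8.21% of all genes higher and 12.4% lower, with ratios 18 above and 2 below 0 and a median log2 ratio of 0.36, beside -0.04 over all genes and 0.27 over the microglia markers. Plcg2, a phospholipase, had 45.1 CPM in the knock-out-labelled library and 25.2 CPM in the wild-type-labelled library, a log2 ratio of 0.84 (0.61 to 1.06). Akt1, the survival kinase, had 53.4 and 32.6 CPM, a ratio of 0.71 (0.51 to 0.92), and the adaptor Gab2 had 24.0 and 15.5 CPM, a ratio of 0.63 (0.33 to 0.94). Pik3cg, a phosphoinositide kinase, had 40.02 and 27.8 CPM, a ratio of 0.52 (0.29 to 0.75) that is not past 1.5 times. In endothelial-like cells Akt1 had 77.6 and 36.1 CPM, Gab2 13.1 and 11.2 CPM and Plcg2 8.29 and 9.71 CPM. Ratios of this and the following gene lists were not recomputed relative to the microglia markers. The genes below 0 were Tyrobp, the adaptor DAP12, at -0.21, and Ptpn6, the phosphatase SHP-1, at -0.12.

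The list made for the JAK-STAT relay, which the GM-CSF and G-CSF receptors use, held the largest log2 ratio of these lists. It was that of Cebpb, which is on the list but is neither a JAK nor a STAT. The lists were chosen with earlier results of these data known, so their counts of called genes only describe them. Of 18 genes 13 reached 20 CPM, 5 were past 1.5 times higher and 1 lower, against 8.21% of all genes higher and 12.4% lower, and the median log2 ratio was 0.34. Cebpb, a myeloid transcription factor, had 1136 CPM in the knock-out-labelled library and 219 CPM in the wild-type-labelled library, a ratio of 2.37 (2.31 to 2.43). The survival kinase Pim1 had 132 and 52.1 CPM, a ratio of 1.34 (1.20 to 1.49), and Socs3, the feedback inhibitor of STAT3 signals, had 1217 and 551 CPM, a ratio of 1.14 (1.10 to 1.19). Stat3 and Jak1 were also past 1.5 times, at 0.74 and 0.61. Socs2, another feedback inhibitor, was lower, with 20.6 and 38.9 CPM and a ratio of -0.92 (-1.21 to -0.64), and its endothelial-like level was 108 and 104 CPM.

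Survival and cycle genes downstream of CSF1 went in both directions. All 14 reached 20 CPM, 3 were past 1.5 times higher and 2 lower, against 8.21% of all genes higher and 12.4% lower, and the median log2 ratio was 0.28. Bcl2a1d, a BCL-2 family survival gene, had 139 CPM in the knock-out-labelled library and 73.0 CPM in the wild-type-labelled library, a ratio of 0.94 (0.80 to 1.06), and Mitf, a lysosome and osteoclast transcription factor, had 41.8 and 26.1 CPM, a ratio of 0.68 (0.45 to 0.91). Bcl2a1d has near-identical family copies, so its reads may be split. The cyclin Ccnd2 was lower, with 27.8 and 56.2 CPM and a ratio of -1.02 (-1.26 to -0.78), as was Ccnd3, with 47.7 and 82.8 CPM and a ratio of -0.80 (-0.98 to -0.61). These cyclins had higher levels in endothelial-like cells, 178 and 120 CPM for Ccnd2 and 203 and 169 CPM for Ccnd3.

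Of the 8 class III receptor tyrosine kinases and ligands, the family of CSF1R, 3 reached 20 CPM, with 1 past 1.5 times higher and 1 lower, against 8.21% of all genes higher and 12.4% lower, and a median log2 ratio of 0.33. Kitl, the ligand of KIT, had 41.3 CPM in the knock-out-labelled library and 87.7 CPM in the wild-type-labelled library, a ratio of -1.09 (-1.29 to -0.89), against 370 and 288 CPM in endothelial-like cells. Pdgfb, a growth factor for pericytes, had 79.7 and 47.5 CPM, a ratio of 0.75 (0.58 to 0.92), against 119 and 69.6 CPM in endothelial-like cells. Pdgfa had 51.9 and 41.3 CPM, a ratio of 0.33 (0.13 to 0.53). The named genes past 1.5 times lower, Socs2, Ccnd2, Ccnd3 and Kitl, all had more RNA in endothelial-like than in microglia-like cells, and the endothelial marker sum in microglia-like cells was 1733 CPM in the knock-out-labelled library and 5296 CPM in the wild-type-labelled library; its part in these ratios was not tested.

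Genes with the most similar pattern were found by Pearson's r of log2(CPM + 20) over 8 points, the 4 named classes with at least 50 cells in each library times both libraries, among 7461 genes. The points share libraries, depth and free RNA, so r is a description. For Csf1r these were Ly86 (0.998), the RP105 partner MD-1, Nckap1l (0.997), a haematopoietic actin regulator, and P2ry13 (0.996), a microglial purine receptor. For Csf3r they were Ccrl2, Fam105a and Ccl4 (0.996, 0.996 and 0.995), for Csf2rb Arhgap39, Ppt1 and Cd53 (0.991, 0.990 and 0.989), and for Csf2ra Ms4a6d, Wdr44 and Snx5 (0.982, 0.982 and 0.981). For Il34 they were Serping1, the C1 inhibitor, Cryab, a small heat shock protein, and Ppp1r12b, a myosin phosphatase subunit (0.990, 0.989 and 0.989). Csf1, which has no class of its own, had the lowest values, with Ptpn2, Fam114a2 and Srsf10 (0.964, 0.954 and 0.953).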

How the data were processed

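The deposited matrices hold UMI counts per gene and barcode, unnormalized, 1 matrix per library; the submitters' processing notes name Cell Ranger 2.0.1, STAR, Seurat 2.1.0 and the builds GRCm38.p5 and mm10, and the authors' steps beyond these are not given in the sources used here. Filters of 300 genes or more and 10% mitochondrial counts or less kept most cells (2596 of 2604 barcodes labelled knock-out and all 4582 labelled wild type). They were clustered jointly in scanpy 1.11.5 (Python 3.11.15, scikit-learn 1.9.0, leidenalg 0.10.2) with 2000 variable genes, 30 components, 15 neighbours and Leiden resolution 0.5, leaving out the 6 members, Runx1 and sex-linked genes.

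A cluster took an "-like" name from 21 marker lists where at least 3 markers and 50% of a list stood out. A list with 2 or more such markers among the 10 leading genes gave the name, whatever its rivals. Otherwise no rival list could reach 60% of its score. Rivals past 60% were present in the pericyte or smooth muscle-like, erythrocyte-like, arterial endothelial-like, ependymal-like, border-associated macrophage-like and fibroblast or meningeal-like clusters. The scoring was set after the data were seen, and rebuilt names can differ from the study's. The fluorescence-scatter gate excluded doublets, per the labels' protocols, and Scrublet scores marked 54 and 168 barcodes (0.8% per 1000 cells), which were kept and left out as an alternative. UMIs were summed per class and library. Levels have exact Poisson intervals, shares of cells exact Clopper-Pearson intervals after thinning to 1500 UMIs, and ratios exact conditional binomial intervals (scipy 1.17.1), all at 95% and for counting error only. Genes at 20 CPM in either library entered the comparisons, and a gene was called past 1.5 times between libraries or 2 times between classes with an interval that excluded equality. The estimated background was each library's summed profile, scaled by the endothelial markers of its microglia-like cells; it contains microglial RNA itself. The code was tested on simulated data.

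Named genes were the members, Runx1, up to 4 genes of each of 5 gene lists with the largest absolute ratio and an interval excluding equality, the whole list of other cytokines and receptors, and the 3 genes most like each member. Tnf, Ccl3, P2ry12, Ackr1, Vcam1, Tyrobp, Ptpn6, Jak1, Stat3 and the cluster-leading genes were named after their values were seen. The members and lists were chosen with earlier results of these data known. The promoter motifs, the comparison of Csf2rb with Csf2rb2 and the finer clusters (resolution 1) were added after the data were seen. Positions are from GENCODE M21 (27645 of 27998 gene IDs matched) and promoters from RefSeq on GRCm38.p6.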

Additional observations from a re-analysis of the deposited data

Results flagged for a closer look

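Csf1r and Csf3r had opposite directions in the 2 large classes. The log2 ratio of the knock-out-labelled over the wild-type-labelled library was 0.68 for Csf1r in microglia-like cells and -0.98 in endothelial-like cells, and for Csf3r it was 0.32 and -0.85. With 1 library per group the difference between the classes was not tested. The microglia markers had the same pair of directions, with sums of 32207 and 27490 CPM in microglia-like cells and 6616 and 11988 CPM in endothelial-like cells of the knock-out-labelled and wild-type-labelled libraries; their part in these ratios was not tested.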

How the results depend on the processing

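Of 201 recomputed values, 155 stayed within the counting error of the reported one, 46 moved and 0 called values reversed. Of values that were not called, these changed sign: the library ratio of Csf1 in 1, Csf2rb in 4 and Csf3r in 1 of 12 alternatives, and the ratio of microglia-like over endothelial-like cells of Csf1 in 2 of 8 in each library and of Il34 in 2 of 8 in the wild-type-labelled library. Log2 ratios between libraries in microglia-like cells moved as follows. Relative to the microglia markers they were 0.45 for Csf1r, 0.30 for Csf1, -0.37 for Csf2ra and 0.092 for Csf3r, and without Sparc, a choice made after seeing the data, 0.43, 0.28, -0.38 and 0.079. With separate clusterings of the libraries they were 0.77, -0.53, -0.32 and 0.49, and with background out 0.37 for Csf1r, -0.49 for Csf2ra and -0.032 for Csf3r. Median scaling gave 0.72 for Csf1r, and thinning 0.49 for Csf2rb. Under separate clustering 745 knock-out-labelled cells led by Tnf stayed unnamed, and with the unnamed cells of the joint class kept, also chosen after seeing the data, the ratios were 0.68 for Csf1r and 0.52 for Csf1.

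Log2 ratios of microglia-like over endothelial-like cells moved in the knock-out-labelled library to 3.22 for Csf1r after thinning, and under separate clustering to 2.12 for Csf1r, -0.51 for Csf1, 1.35 for Csf2ra, 1.43 for Csf2rb and 1.98 for Csf3r, or to 2.03, 0.53, 1.53, 1.65 and 1.81 with the unnamed cells kept. In the wild-type-labelled library they moved to 0.59 for Csf1 and 1.81 for Csf2rb after thinning and to -0.17 for Csf1 under separate clustering, with or without those cells, and Il34 in pericyte or smooth muscle-like over endothelial-like cells moved to 3.81 after thinning. The cause of these was not tested.

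At a minimum of 50 CPM, 259 genes were past 1.5 times higher and 353 lower, against 472 and 712, because fewer genes entered. Unthinned shares of microglia-like cells with a UMI were 99.1%, 13.9%, 25.6%, 9.70% and 38.6% for Csf1r, Csf1, Csf2ra, Csf2rb and Csf3r in the knock-out-labelled library, and 99.6%, 17.6%, 39.3%, 13.4% and 46.5% in the wild-type-labelled library, with 3.15% for Il34, because unthinned cells are deeper. No paired analysis was possible because each group has 1 library. Depth limits Il34 and Csf2rb most, with 7 and 146 UMIs in microglia-like cells of the knock-out-labelled library.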
